A study of Mus musculus with 10 samples.

Results

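The comparison set embryoid bodies (EBs) formed for 24 h by Smyd5 knockdown ES cells against the Smyd5 knockdown ES cells they were made from. The authors describe compromised self-renewal in these ES cells, with flattened colonies, so they are not an intact ES cell baseline. Genes entered it when their RPKM (a level per length, the reads of a transcript over its kilobases and over the library's size) reached at least 3 in either library, which held for 9191 of 22878 genes. Gene expression was read by RNA-Seq of polyA RNA in 10 libraries of R1 mouse ES cells and their EBs, with an shRNA against Smyd5 (shSmyd5) or against luciferase (shLuc, the control), in ES cells and in EBs of 24 h and of days 6, 10 and 14. There was 1 library per condition, so no difference described here has a replicate check and no p-value is given. The shSmyd5 EBs at 24 h were shSmyd5 ES cells moved to dishes that cells do not attach to, where they form aggregates, in ES cell medium without LIF. The shSmyd5 ES cells carried the shRNA from a lentivirus, were selected with puromycin, and per the labels were grown for RNA-Seq on gelatin in ES cell medium with LIF and the GSK3 inhibitor CHIR9901 over several passages to remove feeder cells. The methods of the study name this culture for ChIP and otherwise give growth on irradiated feeder cells with LIF. The shLuc EBs at 24 h and shLuc ES cells were handled alike with the control shRNA. The sources used here do not say whether the inhibitor stayed in the EB medium, and loss of LIF, the inhibitor, growth in aggregates and 24 h of time cannot be told apart. No picking of clones is described for the shRNA lines. Where a gene differs, fewer cells of a type and less RNA per cell cannot be told apart in bulk libraries.

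Mouse ES cells kept in LIF resemble the naive epiblast before implantation. LIF signals through its receptor and gp130 to the transcription factor STAT3, which with ESRRB, TFCP2L1, KLF and other factors holds the naive state. In EBs without LIF these factors decline, epiblast genes of the primed state such as Otx2, Fgf5 and Dnmt3b come up, and an outer layer of primitive endoderm marked by GATA6 begins to form. SMYD5 is a methyltransferase that places trimethylation on lysine 20 of histone H4, a mark of silent chromatin.

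Among the genes far higher in the 24 h EBs were meiosis and germ cell genes, whose promoters are shown first because many of them share an E-box, CACGTG, the motif bound by MAX dimers and by MYC and MAX together. The 250 bases before the RefSeq start site of the 4 germline genes with the highest folds are given below 5′ to 3′ on the strand of the gene, in lower case with CACGTG in capitals, followed by Dazl, a germline gene whose window holds no match. The sequences come from a RefSeq table of GRCm38.p6 and were placed on NCBIM37 (mm9, to which all coordinates here refer) by an identical match. The Hormad1 window is chr3:95363349-95363598 (plus strand), the Sycp3 window chr10:87922082-87922331 (plus strand), the Taf7l window chrX:131011030-131011279 (minus strand), the Slc25a31 window chr3:40512543-40512792 (plus strand) and the Dazl window chr17:50432946-50433195 (minus strand).
Hormad1: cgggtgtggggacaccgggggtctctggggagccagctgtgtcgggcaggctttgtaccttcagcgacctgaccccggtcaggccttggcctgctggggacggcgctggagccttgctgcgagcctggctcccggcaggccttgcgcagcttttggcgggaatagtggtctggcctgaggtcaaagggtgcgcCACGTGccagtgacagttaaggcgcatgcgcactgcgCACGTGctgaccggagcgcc
Sycp3: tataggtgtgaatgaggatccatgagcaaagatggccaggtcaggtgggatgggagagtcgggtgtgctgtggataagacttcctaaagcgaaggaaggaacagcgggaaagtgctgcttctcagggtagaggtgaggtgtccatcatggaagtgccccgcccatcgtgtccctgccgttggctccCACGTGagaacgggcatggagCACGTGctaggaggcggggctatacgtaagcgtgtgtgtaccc
Taf7l: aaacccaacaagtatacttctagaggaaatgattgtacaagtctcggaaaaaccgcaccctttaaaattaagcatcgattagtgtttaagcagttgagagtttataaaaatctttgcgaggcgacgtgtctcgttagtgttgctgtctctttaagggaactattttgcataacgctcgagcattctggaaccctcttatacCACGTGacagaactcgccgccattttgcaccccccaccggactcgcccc
Slc25a31: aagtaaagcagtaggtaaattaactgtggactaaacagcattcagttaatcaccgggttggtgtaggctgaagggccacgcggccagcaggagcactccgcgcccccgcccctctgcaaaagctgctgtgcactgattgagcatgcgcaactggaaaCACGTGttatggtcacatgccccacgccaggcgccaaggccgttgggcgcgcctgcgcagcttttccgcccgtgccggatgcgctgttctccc
Dazl: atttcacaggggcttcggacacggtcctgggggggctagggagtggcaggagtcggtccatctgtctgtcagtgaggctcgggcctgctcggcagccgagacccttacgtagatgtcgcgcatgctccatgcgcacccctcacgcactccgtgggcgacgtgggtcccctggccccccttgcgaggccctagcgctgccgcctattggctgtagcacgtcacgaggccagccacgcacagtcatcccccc
The motif is its own reverse complement, so 1 search covers both strands. Its first base lay 57 and 20 bases before the start in Hormad1, 64 and 43 in Sycp3, 49 in Taf7l and 93 in Slc25a31. Of 24 germline genes listed, 19 were in the promoter table, which holds sequence from 250 bases before to 50 bases after the start. Only the 250 bases before the start were searched, and 11 of the 19 held the motif there. Across all 27025 genes of the table the share was 6.86%. A match describes these letters only and says nothing of whether a factor was bound.

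Reads in genes numbered 26181482 in shSmyd5 EBs at 24 h and 26283012 in shSmyd5 ES cells, within a range of 3895537 to 43377815 over the 10 libraries, and 8533 and 6293 genes had 0 reads. The log2 fold is that of RPKM plus 0.1 in the EBs over the ES cells, and the 95% interval in parentheses beside it is the exact (Clopper-Pearson) binomial interval for how a gene's reads divide between both libraries. Such an interval reflects counting error alone and sets a library, not a condition, against another. Because the added 0.1 pulls the folds of low genes towards 0, a fold of such a gene can lie outside its interval. Counting error was small, with a median interval width on the log2 scale of 0.37 for the 3577 genes whose higher RPKM was 3 to 10, 0.22 for the 3077 genes at 10 to 30 and 0.13 for the 2537 genes at 30 or more.

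Smyd5 (chromosome 6, 85381983 to 85396429) had an RPKM of 0.891 in shSmyd5 EBs at 24 h and 4.51 in shSmyd5 ES cells, which gives a log2 fold of -2.22 (-2.68 to -2.01). It had 10.7 in shLuc EBs at 24 h and 29.7 in shLuc ES cells, a log2 fold of -1.47 (-1.67 to -1.29). Both shSmyd5 libraries were thus below both shLuc libraries, and in each pair the EBs were below the ES cells. At later stages of shSmyd5 EBs the RPKM was 0.492 at day 6, 9.14 at day 10 and 6.88 at day 14. Smyd5 thus stood higher at days 10 and 14 than at day 6, and above the 4.51 of shSmyd5 ES cells. The shLuc EBs of those days were not set beside these values.

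Of the 9191 genes, 943 (10.3%) were at least 2-fold higher and 1981 (21.6%) at least 2-fold lower in shSmyd5 EBs at 24 h, and the median log2 fold was -0.30. For 770 of the higher and 1648 of the lower genes the whole counting interval lay past 2-fold. The split leaned on scaling. Over the 7378 genes that reached an RPKM of 3 in each library the median log2 fold was -0.20, and folds taken from that median gave 1256 higher and 1491 lower genes. With TMM factors the numbers were 1392 and 1323, and with folds freed of their trend on GC content and transcript length they were 961 and 882. Genes that were at least 2-fold higher thus made up 32.3% of the changed genes as deposited, 45.7% centred on the median, 51.3% with TMM and 52.1% without the trend. Counts of list members below are to be read beside the shares of 10.3% and 21.6%. List counts without the trend are to be read beside 961 higher and 882 lower of the 8786 genes with a known GC content. That background is nearly even between the directions, unlike 10.3% and 21.6%. Among genes just inside the RPKM threshold (3 to 3.5, 439 genes) the median log2 fold was -0.44, and just outside it (2.5 to 3, 449 genes) -0.49.

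**Figure D1:**
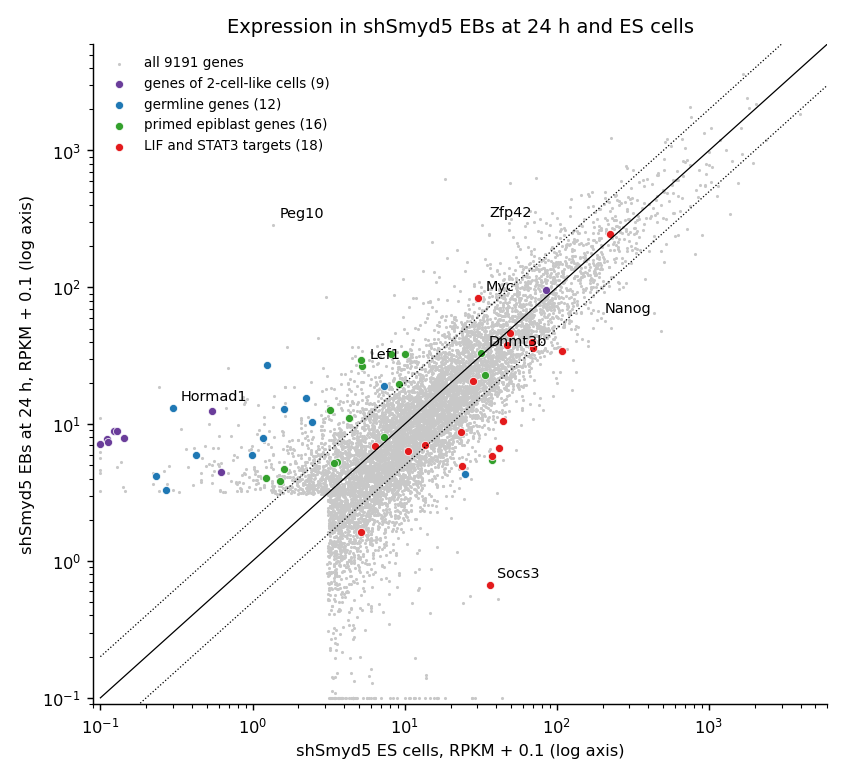
Each point is a gene, with RPKM plus 0.1 in shSmyd5 EBs at 24 h on the vertical log axis and in shSmyd5 ES cells on the horizontal log axis. The solid line marks equal levels and the dotted lines 2-fold, grey points are all 9191 genes, and colours mark members of 4 gene lists that reached an RPKM of 3. Points of the 2-cell-like and germline lists lie at the left edge above the lines, Peg10 lies near 285 on the vertical axis, and Socs3 lies far below the lines.

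The folds followed base composition. Fold and transcript GC content had a rank correlation of -0.469 across 8786 genes of known sequence (genes are not independent replicates), and with transcript length it was -0.057 across 9191 genes. In 10 groups of genes ordered by GC content, the median log2 fold was 0.64 in the lowest group (median GC 40.2%), where 30.5% of genes were at least 2-fold higher and 1.71% lower. It was -0.86 in the highest group (59.9%), where 4.21% were higher and 43.5% lower. In 10 groups ordered by length the medians lay between -0.09 (median length 694.5 bases, 19.7% higher and 22.6% lower) and -0.41. The shLuc pair of libraries showed the GC trend more steeply, with a rank correlation of -0.794 across 9185 genes and medians from 1.58 (40.1% GC) to -2.59 (60.1%). For this reason a fold minus the trend, called the adjusted fold below, is given beside the folds that it takes across 2-fold and beside others of interest. What part of the trend comes from the libraries and what part from the cells was not tested.

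**Figure D2:**
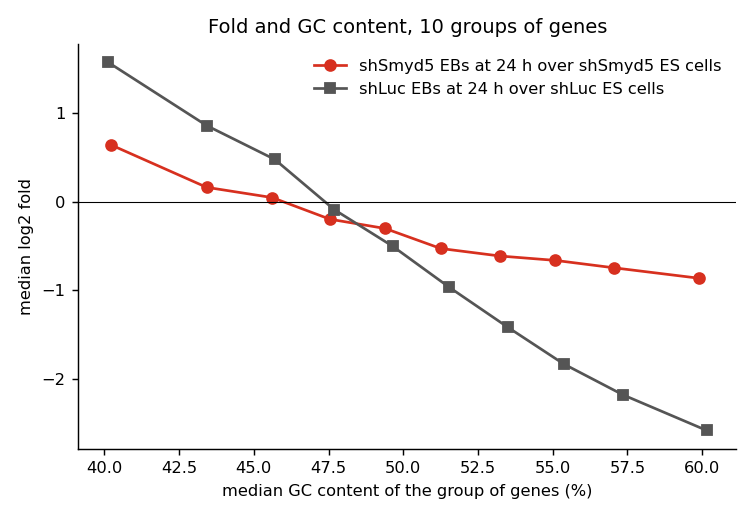
Median log2 fold of EBs at 24 h over ES cells in 10 groups of genes ordered by GC content, against that group's median GC content (%). Red circles are the shSmyd5 pair (0.64 to -0.86) and grey squares the shLuc pair (1.58 to -2.59).

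The 3 genes fixed as markers of the comparison each behaved differently. Nanog, a homeobox factor of the naive network (chromosome 6, 122657507 to 122664651), had an RPKM of 57.4 in shSmyd5 EBs at 24 h and 184 in shSmyd5 ES cells, which gives a log2 fold of -1.68 (-1.74 to -1.63) that was -1.49 when adjusted. In the control it had 99.0 in shLuc EBs and 238 in shLuc ES cells, a log2 fold of -1.27. Nanog was thus at least 2-fold lower in the EBs of both pairs, and in later shSmyd5 EBs it was at 14.7, 10.4 and 2.86 on days 6, 10 and 14. Lef1, a transcription factor that works with beta-catenin in Wnt signaling (chromosome 3, 130813389 to 130927274), had 26.5 in shSmyd5 EBs and 5.14 in shSmyd5 ES cells, which gives a log2 fold of 2.35 (2.23 to 2.51) that was 2.38 when adjusted. The control values were 1.14 in shLuc EBs and 2.55 in shLuc ES cells, a log2 fold of -1.09 (-1.80 to -0.50). Lef1 therefore differed in opposite directions in the pairs, and its later RPKM in shSmyd5 EBs was 6.09, 5.47 and 2.20. Dnmt3b, a DNA methyltransferase that the early epiblast needs to set methylation (chromosome 2, 153475186 to 153513466), had 33.1 in shSmyd5 EBs and 31.8 in shSmyd5 ES cells, which gives a log2 fold of 0.06 (0.01 to 0.11). When adjusted the fold was 0.84, still under 2-fold. In the control Dnmt3b had 13.8 in shLuc EBs and 41.1 in shLuc ES cells, a log2 fold of -1.56 that was 0.00 when adjusted.

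Marker genes of other cell types were summed in each library. The 5 ES cell markers summed to an RPKM of 873 in shSmyd5 EBs at 24 h and 866 in shSmyd5 ES cells, with Zfp42 at least 2-fold higher and Nanog and Esrrb lower. The 5 early epiblast markers summed to 94.2 in the EBs and 43.5 in the ES cells, with Dnmt3b the marker that was under 2-fold and Fgf5 low in both libraries. The 4 primitive endoderm markers summed to 10.7 and 0.921, each at least 2-fold higher in the EBs. Only Gata6 among them reached an RPKM of 3, and Foxa2 had 24 reads in the EBs and 1 in the ES cells. In the wider list of primitive and visceral endoderm genes, given below, 5 were higher and 4 lower. The 5 fibroblast feeder markers summed to 4.27 and 3.55, nearly all of it Thy1 (3.99 in the EBs and 3.30 in the ES cells). Col3a1 and Postn had 0 reads in both shSmyd5 libraries, Col1a1 had 0.0712 and 0.237, and Col1a2 0.204 and 0.00985. The 3 blood and endothelial markers summed to 0.436 and 0.678. Defining fibroblast collagens were thus at or near 0 in both libraries.

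The best known readout of LIF signaling was nearly gone from the EBs. Socs3, the feedback inhibitor that STAT3 induces (chromosome 11, 117827393 to 117831361), had an RPKM of 0.570 in shSmyd5 EBs at 24 h and 36.1 in shSmyd5 ES cells, 54.1-fold lower, with a log2 fold of -5.76 (-6.36 to -5.63) that was -4.78 when adjusted. It had 1.15 in shLuc EBs and 84.6 in shLuc ES cells, a log2 fold of -6.09. All 18 listed LIF and STAT3 targets reached an RPKM of 3, 16 of them in both libraries, and 8 were at least 2-fold lower and 1 higher, with a median log2 fold of -0.96 beside -0.30 for all genes. Of 17 with an adjusted fold, 5 were lower and 2 higher, with a median of -0.34. Stat3 itself had 4.87 in the EBs and 23.7 in the ES cells (-2.26, adjusted -1.52). Bcl3, a nuclear partner of NF-kappaB proteins, had 5.79 and 37.5 (-2.67, adjusted -1.72). Pim3, a survival kinase, had 6.64 and 41.5 (-2.63, adjusted -1.59). These genes were also lower in the shLuc EBs, at log2 folds of -2.63 for Stat3, -3.04 for Bcl3 and -5.37 for Pim3. The kinase gene Sgk1 had 34.0 in the EBs and 108 in the ES cells, and its fold barely moved with the adjustment (-1.66, adjusted -1.61). The Icam1 adhesion receptor (-1.43, adjusted -0.63) and the AP-1 factor Junb (-1.68, adjusted -0.72) came under 2-fold when adjusted. Klf4, a naive factor that LIF sustains, had 39.9 in the EBs and 68.7 in the ES cells, and its fold vanished with the adjustment (-0.78, adjusted 0.02). Of the receptor subunits, Lifr had 6.85 in the EBs and 6.32 in the ES cells (0.11), and Il6st, which encodes gp130, had 6.91 and 13.5 (-0.96).

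Myc was the member at least 2-fold higher. This growth regulator (chromosome 15, 61816946 to 61821929) had an RPKM of 83.0 in shSmyd5 EBs at 24 h and 30.4 in shSmyd5 ES cells, which gives a log2 fold of 1.45 (1.39 to 1.51) that was 2.08 when adjusted. In the control it had 42.0 in shLuc EBs and 32.0 in shLuc ES cells, a log2 fold of 0.39. Among the 17 listed growth regulators of the Lin28 and Myc groups, 4 were higher and 3 lower, with a median of -0.23, and 4 and 1 when adjusted. The higher ones were Myc, Hmga2 (a chromatin protein of early embryos, 6.77 and 0.886, 2.80), Mxd3 (a MAX partner, 42.1 and 15.4, 1.44) and Npm1 (a nucleolar protein, 1769 and 758, 1.22). Npm1 came under 2-fold when adjusted (0.63) and the other 3 did not. Hmga2 passed the RPKM filter through the EBs alone, which sets its direction. The palindrome TTCNNNGAA, the core that STAT proteins bind, lay in the promoter window of 3 of 15 LIF and STAT3 targets in the table, searched on both strands with overlaps allowed, beside 8.13% of all genes.

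Naive regulators went both ways. All 20 listed reached an RPKM of 3, 19 of them in both libraries, and 8 were at least 2-fold lower and 2 higher in shSmyd5 EBs at 24 h, with a median log2 fold of -0.79. Of 18 with an adjusted fold, 5 were lower and 4 higher, and the median was -0.05. The list median thus lay near 0 when adjusted, while single members kept large folds. Tfap2c, a factor of naive cells, trophoblast and germ cells, had 1.06 in the EBs and 22.0 in the ES cells, a log2 fold of -4.25 (-4.64 to -4.11). Dppa3, which protects methylation in the zygote, had 4.23 and 24.9, a log2 fold of -2.53 (-2.82 to -2.30) that was -3.08 when adjusted. The STAT3 target Tfcp2l1 had 10.4 and 44.4, a log2 fold of -2.08 (-2.14 to -2.04). Each was lower in shLuc EBs too, at -3.43 for Tfap2c, -0.85 for Dppa3, which is under 2-fold, and -2.20 for Tfcp2l1. Tcl1, a cofactor of AKT kinase, had 15.2 and 46.4 (-1.60, adjusted -1.26). Esrrb, an orphan nuclear receptor, had 65.1 and 166, and its fold came well under 2-fold when adjusted (-1.35, adjusted -0.37). Nr5a2, another orphan nuclear receptor, had 9.07 and 19.8 (-1.12, adjusted -1.20). Fbxo15 had 17.2 and 42.8 in the shSmyd5 pair (-1.31, adjusted -1.64) and 56.9 in shLuc EBs and 41.2 in shLuc ES cells (0.46). Klf2 (-0.79) and Tbx3 (-0.57) were under 2-fold.

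Zfp42, the naive marker also called Rex1, went against the list. It had an RPKM of 287 in shSmyd5 EBs at 24 h and 31.9 in shSmyd5 ES cells, 8.96-fold higher, with a log2 fold of 3.16 (3.10 to 3.23) that was 3.07 when adjusted. It had 324 in shLuc EBs and 38.3 in shLuc ES cells, a log2 fold of 3.08. The pairs share no library, and both put Zfp42 about as far above the ES cells. At days 6, 10 and 14 shSmyd5 EBs had 14.4, 8.99 and 5.31, below the ES cells. The adhesion gene Jam2 was the other higher member, with 51.7 in the EBs and 19.8 in the ES cells (1.38, and 1.72 in the shLuc pair).

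Core pluripotency factors stayed closer to the ES cell level. All 16 listed reached an RPKM of 3 in both libraries, with 3 at least 2-fold higher, 1 lower and a median log2 fold of -0.20, and 5 higher and 1 lower when adjusted. The lower one was Nanog, and beside Zfp42 the higher ones included Dppa2, an early embryo factor (131 in the EBs and 40.5 in the ES cells, 1.69). Pou5f1, which encodes OCT4, had 212 and 329 in the shSmyd5 pair, a log2 fold of -0.64 (-0.67 to -0.61) that was 0.02 when adjusted. The control values were 141 in shLuc EBs and 929.8 in shLuc ES cells, a log2 fold of -2.72 that was -0.81 when adjusted. Its partner Sox2 had 252 in shSmyd5 EBs and 154 in shSmyd5 ES cells, which gives a log2 fold of 0.71 (0.68 to 0.74) that was 1.24 when adjusted.

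**Figure D3:**
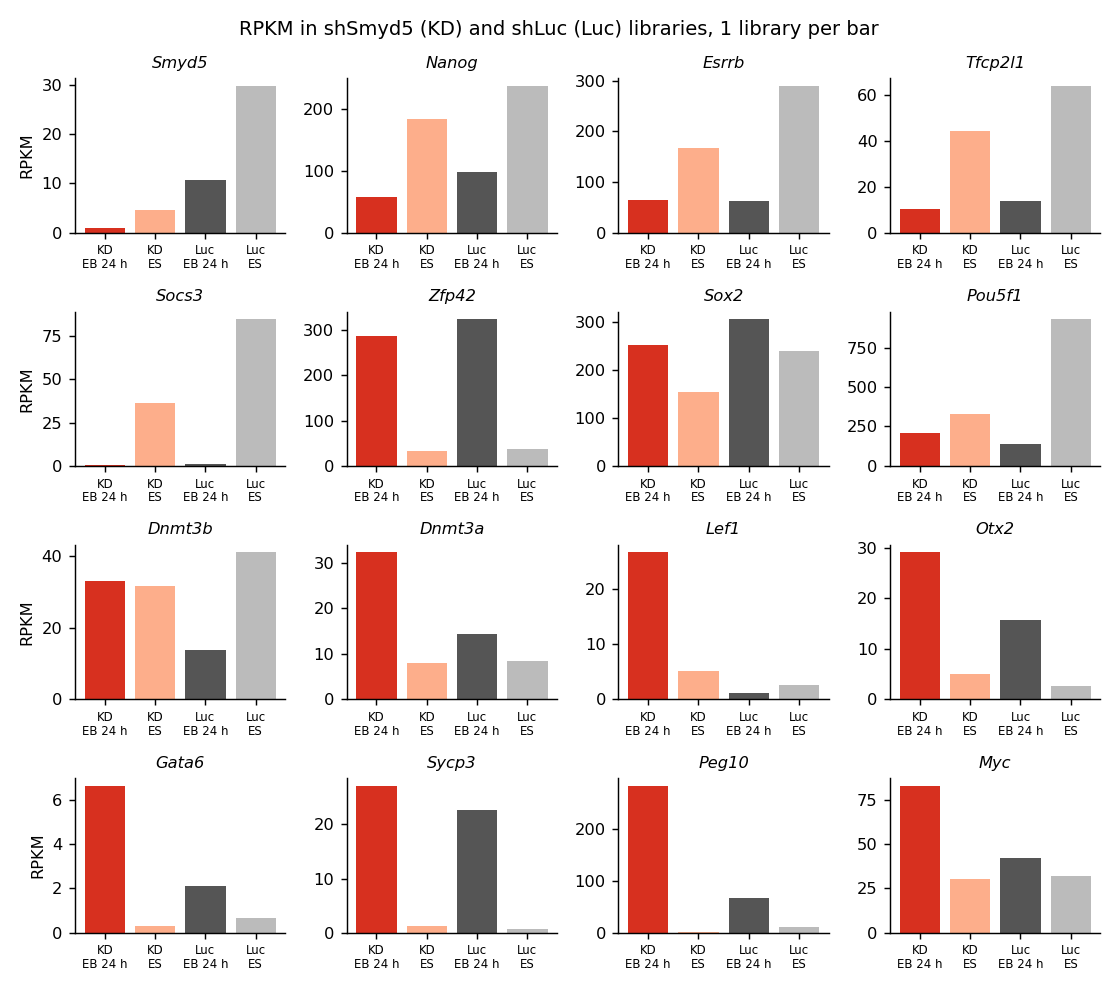
RPKM (linear axis from 0) of 16 genes in shSmyd5 EBs at 24 h, shSmyd5 ES cells, shLuc EBs at 24 h and shLuc ES cells, 1 library per bar, with no error bars since there is 1 library each. Zfp42 is high in both EB libraries, Socs3 is near 0 in both, and Lef1 and Peg10 stand highest in the shSmyd5 EBs (26.5 and 285).

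Genes of the primed epiblast were higher as a group. Of 20 listed, 16 reached an RPKM of 3, 13 in both libraries and 3 through the EBs alone, so these 3 had to be higher there. At least 2-fold higher were 10 and lower was 1, with a median log2 fold of 1.36 beside -0.30 for all genes, and adjusted folds gave 12 higher, 1 lower and a median of 1.92. Otx2, the homeobox factor that drives the exit from the naive state (chromosome 14, 49277354 to 49287319), had 29.1 in shSmyd5 EBs at 24 h and 5.04 in shSmyd5 ES cells, which gives a log2 fold of 2.51 (2.36 to 2.70). In the control it had 15.7 in shLuc EBs and 2.70 in shLuc ES cells, a log2 fold of 2.49. Otx2 was therefore higher by about the same factor in both pairs, and at days 6, 10 and 14 shSmyd5 EBs had 41.0, 16.6 and 5.71. The de novo DNA methyltransferase Dnmt3a had 32.2 in shSmyd5 EBs and 7.99 in shSmyd5 ES cells, which gives a log2 fold of 2.00 (1.95 to 2.07). The control values were 14.3 in shLuc EBs and 8.37 in shLuc ES cells, a log2 fold of 0.76. The growth factor gene Fgf15 had 12.7 and 3.11 in the shSmyd5 pair (1.99, with 2.02 in the shLuc pair). Foxd3, a forkhead factor of the epiblast, had 32.6 and 9.88 in the shSmyd5 pair (1.71) and 15.9 and 25.1 in the shLuc pair (-0.65). When adjusted, its folds were 2.81 and 2.47. The POU factor Pou3f1 was alike, with 4.60 and 1.51 in the shSmyd5 pair (1.54, adjusted 2.64) and a log2 fold of -0.91 (adjusted 2.02) in the shLuc pair. Thus the sign of these genes in the shLuc pair depended on the GC adjustment. Etv1 (1.38), the cadherin Cdh2 (1.33) and the zinc finger factor Zic2 (1.11) were also higher. The tight junction gene Cldn6 was the lower one, with 5.37 in the EBs and 37.5 in the ES cells (-2.78), and it reached 194 at day 6. Fgf5, the classical epiblast growth factor, had 0.869 and 0.101 and did not reach an RPKM of 3, with 36.9 at day 6. In the shLuc pair 14 of the listed genes reached an RPKM of 3, 3 were higher and 6 lower, with a median of -0.86 that was 1.09 when adjusted.

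The germline genes shown by their promoters were near silent in the ES cells. Of the 24 listed, 23 were in the files and 12 reached an RPKM of 3, 10 of them through the EBs alone, so their higher level there follows in part from the filter. At least 2-fold higher were 11, and Dppa3 was lower. The median log2 fold over the 12 was 2.90, and 2.33 when adjusted. Their transcripts were poor in GC (median 41.8%). Hormad1, a protein of meiotic chromosome axes (chromosome 3, 95363599 to 95391593), had 13.0 in shSmyd5 EBs at 24 h and 0.201 in shSmyd5 ES cells (825 and 12 reads), which gives a log2 fold of 5.45 (5.21 to 6.98) that was 3.60 when adjusted. It had 9.72 in shLuc EBs and 0 reads in shLuc ES cells. By day 6 it was at 0.730 in shSmyd5 EBs, and at days 10 and 14 at 0.466 and 0.169. Sycp3, a component of the synaptonemal complex (chromosome 10, 87922314 to 87935981), had 27.1 and 1.15 in the shSmyd5 pair, a log2 fold of 4.44 (4.16 to 4.99) that was 2.91 when adjusted. It had 22.7 and 0.639 in the shLuc pair, and in shSmyd5 EBs it reached 202 at day 6 before 10.3 and 9.59 at days 10 and 14. Hormad1 was thus highest at 24 h and Sycp3 at day 6.

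Further germline genes were higher by smaller factors. Taf7l, a TFIID subunit of germ cells, had 4.06 in the EBs and 0.131 in the ES cells (4.17, adjusted 3.85). Slc25a31, an ADP and ATP carrier of germ cell mitochondria, had 5.86 and 0.324 (3.81, adjusted 3.35). Sycp1, another protein of the synaptonemal complex, had 3.18 and 0.170 (3.61, adjusted 1.61). These meiotic genes were higher in the shLuc EBs too, at log2 folds of 3.74, 5.06 and 3.16, although the Sycp1 fold there was -0.03 when adjusted. The RNA-binding germ cell factor Dazl had 12.8 and 1.50 (3.01, adjusted 1.60), and the helicase Ddx4 had 10.2 and 2.36 (2.07, adjusted 1.60). Mael of the piRNA pathway had 15.4 and 2.13 (2.80, adjusted 2.65). Stra8, which starts meiosis in response to retinoic acid, had 7.82 and 1.08 (2.75, adjusted 2.93), and 1.04 and 0.246 in the shLuc pair. Stk31 had 5.89 and 0.884 (2.61, adjusted 2.01). Tex19.1, a germ cell and placental gene, had 1385 and 495 reads in the shSmyd5 pair, a log2 fold of 1.39 (1.25 to 1.55), and an RPKM of 8.32 and 22.7 in the shLuc pair, a log2 fold of -1.43. Among the 11 higher genes, which were also the listed genes past the RPKM filter in the promoter table, 8 held CACGTG.

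Genes of 2-cell-like cells, a rare state in ES cell cultures that turns on transcripts of the cleaving embryo, were mostly low in both libraries. Of 23 listed, 14 stayed under an RPKM of 3 in both and 9 reached it, 8 of them through the EBs alone. Those 8 were at least 2-fold higher and 0 were lower, a direction that the filter sets, and the median log2 fold of 6.04 over the 9 (5.56 over the 8 with an adjusted fold) is a description only. The 6 members of the Zscan4 cluster on chromosome 7 had RPKMs of 7.06 to 8.86 in shSmyd5 EBs at 24 h and 0 to 0.0436 in shSmyd5 ES cells. Zscan4c, whose product acts at telomeres, had 844 reads in the EBs and 2 in the ES cells, and its interval was 6.78 to 11.68 on the log2 scale. Zscan4b had 518 reads in the EBs and 0 in the ES cells, at least 163-fold higher when 3 reads stand for the 0. Zscan4 copies are near identical, so their reads cannot be assigned to single copies with certainty and the 6 values are not independent. In the shLuc pair the same cluster had 77.1 to 123 in the EBs and 0 reads in the ES cells. The gene Gm5662 had 12.5 and 0.440 in the shSmyd5 pair and 121 and 0.292 in the shLuc pair, and Gm4340, outside the list, had 18.5 and 0.141 (6.27) and 144 and 0.427 (8.09). Both carry the same caution on copies. Arg2, a mitochondrial arginase, had 4.38 and 0.518 (2.86), and Eif1a was the member under 2-fold (0.17). The list median was the same with Zscan4b set at its bound. By day 6 the Zscan4 genes had 1.34 to 2.44 in shSmyd5 EBs.

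At an RPKM of at least 10, no gene had a higher fold than Peg10, an imprinted placental gene of retrotransposon origin (chromosome 6, 4697306 to 4710514). Peg10 had an RPKM of 285 in shSmyd5 EBs at 24 h and 1.25 in shSmyd5 ES cells (79391 and 330 reads), 210.2-fold higher, with a log2 fold of 7.72 (7.67 to 7.99) that was 7.99 when adjusted. In the control it had 66.8 in shLuc EBs and 10.8 in shLuc ES cells, a log2 fold of 2.61 (2.48 to 2.77). The shSmyd5 ES cells were thus below and the shSmyd5 EBs above their shLuc counterparts, and shSmyd5 EBs had 333, 573 and 809 at days 6, 10 and 14. Its neighbour Sgce, which encodes epsilon-sarcoglycan and is imprinted with it (chromosome 6, 4624350 to 4697204), had 4.79 and 0.0287 in the shSmyd5 pair (354 and 2 reads), a log2 fold of 5.25 (5.52 to 10.43). It had 1.86 and 0.405 in the shLuc pair (1.95). Both genes of the locus were thus higher in both pairs.

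Of 29 imprinted genes listed, 18 reached an RPKM of 3, with 6 at least 2-fold higher, 5 lower and a median log2 fold of 0.54. Of the 18, 12 reached it in both libraries, 4 through the EBs alone and 2 through the ES cells alone. For those that passed through 1 library, the filter sets the direction. Over the 16 with an adjusted fold, 9 were higher, 2 lower and the median was 1.17. Cdkn1c, the cell cycle inhibitor p57 (chromosome 7, 150644255 to 150646955), had 115 in shSmyd5 EBs at 24 h and 9.58 in shSmyd5 ES cells, which gives a log2 fold of 3.57 (3.47 to 3.69). It had 90.1 and 13.5 in the shLuc pair (2.73). The growth factor gene Igf2 had 5.00 and 0.496 in the shSmyd5 pair, a log2 fold of 3.10 (3.00 to 3.69), and 1.30 and 1.64 in the shLuc pair (-0.31). Igf2 reached 389, 985 and 1776 at days 6, 10 and 14 of shSmyd5 EBs. The zinc finger gene Plagl1 (2.06) and the amino acid transporter Slc38a4 (1.34) were the other higher members beside Peg10 and Sgce. The lower ones were Peg3 (2.90 and 18.5, -2.64), the noncoding RNAs Rian (5.45 and 29.0, -2.39) and Meg3 (1.68 and 7.62, -2.12) of a shared cluster on chromosome 12, the adaptor Grb10 (12.1 and 41.8, -1.78) and Phlda2 (39.3 and 100.3, -1.35). Grb10 was at -0.25 in the shLuc pair, and Phlda2 came just under 2-fold when adjusted (-0.99).

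Genes of primitive and visceral endoderm lay on both sides. Of 26 listed genes, 12 reached an RPKM of 3, 4 in both libraries, 5 through the EBs alone and 3 through the ES cells alone, with 5 at least 2-fold higher, 4 lower and a median log2 fold of 0.42 (1.07 when adjusted). The 5 higher genes are those that passed through the EBs alone, and 3 of the 4 lower genes (Apoa2, Trf and Lama1) passed through the ES cells alone, so the filter sets their direction. Gata6, the factor that specifies primitive endoderm (chromosome 18, 11052508 to 11085633), had 6.64 in shSmyd5 EBs at 24 h and 0.309 in shSmyd5 ES cells, which gives a log2 fold of 4.04 (3.96 to 4.93) that was 4.96 when adjusted. It had 2.09 and 0.673 in the shLuc pair (1.50), and 34.1, 44.8 and 55.4 at days 6, 10 and 14 of shSmyd5 EBs. Dab2, an adaptor that endoderm cells need to sort to the surface, had 9.80 and 0.701 (3.63, and 2.75 in the shLuc pair). The basement membrane collagens Col4a1 (13.4 and 1.26, 3.31) and Col4a2 (8.10 and 0.505, 3.76) lie side by side on chromosome 8 and were higher together, while in the shLuc pair their folds were -0.23 and -0.73. Sox7 had 4.24 and 0.931 (2.07). The endoderm factors Gata4 (2.63 and 0.478) and Sox17 (1.17 and 0.121) were above the ES cells but below an RPKM of 3. Lower were the apolipoproteins Apoa2 (0.459 and 26.8, -5.59) and Apoe (47.5 and 483, -3.34), the transferrin gene Trf (0.932 and 4.96, -2.29) and the laminin gene Lama1 (2.98 and 7.04, -1.21, adjusted -0.37). Apoe, Apoa2 and Trf were lower in the shLuc EBs as well, at -4.41, -4.96 and -2.78.

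**Figure D4:**
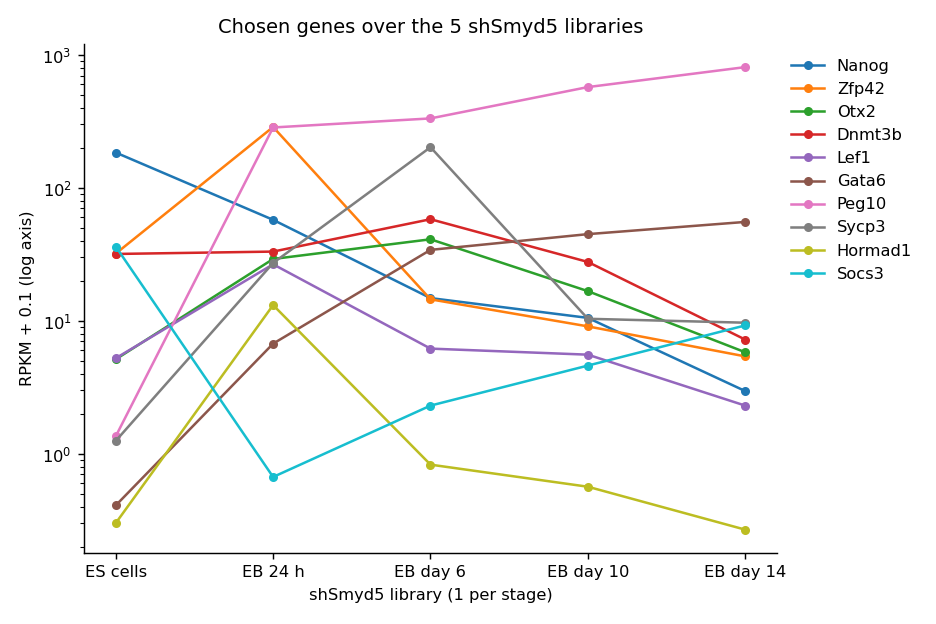
RPKM plus 0.1 (log axis) of 10 genes in the 5 shSmyd5 libraries, from ES cells through EBs of 24 h to day 14, 1 library per stage. Zfp42 and Hormad1 peak at 24 h (287 and 13.0), Nanog declines to 2.86 at day 14, and Gata6 and Peg10 are highest at day 14 (55.4 and 809).

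The Wnt, the Nodal and Activin, and the FGF and ERK lists had members on both sides. Of 26 Wnt targets, 11 reached an RPKM of 3, with Lef1 and the inhibitor of differentiation Id2 (12.5 in the EBs and 4.16 in the ES cells, 1.56, adjusted 0.92) at least 2-fold higher. The secreted inhibitor Sfrp1 (4.92 and 21.6, -2.11), the homeobox factor Cdx1 (2.16 and 7.21, -1.70, adjusted -0.77) and the LEF1 relative Tcf7 (15.2 and 34.6, -1.18, adjusted -0.66) were lower. Axin2, the most direct target of beta-catenin, had 8.54 and 6.60 (0.37, adjusted 1.25). The list's median log2 fold was 0.19, and adjusted folds gave 5 higher, 1 lower and a median of 0.92. Of 20 Nodal and Activin genes, 16 reached an RPKM of 3, with 3 higher, 3 lower and a median of 0.22, and 6 higher, 1 lower and a median of 0.77 when adjusted. Nodal itself had 15.3 and 14.8 (0.04) and Lefty1 5.96 and 6.07 (-0.03). Among the higher ones were the targets Skil (24.1 and 8.78, 1.44) and Eomes (4.53 and 1.99, 1.15). The lower ones were the receptors Acvr2b (-2.85) and Acvr1b (-1.37, adjusted -0.63) and the cofactor Foxh1 (-1.15, adjusted -0.46). Of 19 FGF and ERK feedback genes, 14 reached an RPKM of 3, with Fgf15 higher, the ERK phosphatase Dusp5 lower (0.517 and 3.09, -2.37) and a median of -0.09. Adjusted folds gave 4 higher, 1 lower and a median of 0.48. An RPKM of 3 in both libraries was reached by 10 of the 11 Wnt targets and 12 of the 16 Nodal and Activin genes. Among the 14 FGF and ERK genes 12 did so. The rest passed through 1 library alone, so the filter sets their direction. Among these were Eomes, through the EBs, and Cdx1 and Dusp5, through the ES cells.

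Among genes of cell junctions and shape, 15 of 21 listed reached an RPKM of 3, with 4 at least 2-fold higher and 6 lower. When adjusted, 6 were higher and 4 lower. Of the 15, 8 reached it in both libraries, 4 through the EBs alone and 3 through the ES cells alone. The filter sets the direction of those that passed through 1 library. The claudin Cldn7, part of tight junctions, had 0 reads in shSmyd5 EBs at 24 h and 325 in shSmyd5 ES cells, at least 115-fold lower, and 60.9 RPKM at day 10. Cldn4 had 4.71 and 25.6 (-2.42), and the epithelial splicing factor Esrp1 had 2.18 and 10.4 (-2.20). The epithelial cadherin Cdh1 had 48.2 and 73.4 (-0.60). So Cldn4, Cldn7 and Esrp1 were lower while Cdh1 was under 2-fold, and Cldn7 and Esrp1 had passed through the ES cells alone. The repressors of epithelial genes Snai1 (5.78 and 1.76, 1.66) and Zeb1 (6.87 and 2.58, 1.38) were higher, with Snai1 at -0.53 and Zeb1 at 2.07 in the shLuc pair. Fibronectin (Fn1) was lower, with 31.4 and 81.9 (-1.38, adjusted -0.55). No member of the 29 listed Hox genes reached an RPKM of 3.

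Of 24 genes of glycolysis and glucose transport, 22 reached an RPKM of 3, with 6 at least 2-fold lower, 0 higher and a median log2 fold of -0.74 that was -0.18 when adjusted. Adjusted folds gave 1 lower (Aldoc) and 3 higher (Slc2a1 at 1.17, Pfkp at 1.14 and Slc16a3 at 1.05). Pyruvate kinase (Pkm2) had 269 in the EBs and 716 in the ES cells (-1.41, adjusted -0.60), hexokinase 2 (Hk2) 11.2 and 28.7 (-1.35, adjusted -0.64), and the transporter Slc2a3 68.0 and 172 (-1.34, adjusted -0.90). Lactate dehydrogenase (Ldha) had a log2 fold of 0.05. Of 25 genes of cholesterol synthesis, 23 reached an RPKM of 3, with 9 lower, 0 higher and a median of -0.38, and 3 lower and 0 higher with a median of -0.04 when adjusted. Srebf2, the factor that induces the pathway, had 11.4 and 37.7 (-1.72, adjusted -0.66). Of 30 hypoxia response genes, 24 reached an RPKM of 3, with 4 higher, 1 lower and a median of 0.31 that was 0.52 when adjusted. The higher ones were Fam162a (347 and 93.2, 1.90), Tmem45a (5.86 and 1.26, 2.13), Ankrd37 (14.6 and 4.43, 1.70) and the prolyl hydroxylase Egln3 (19.8 and 9.58, 1.04). Through the ES cells alone passed 2 of the glycolysis, 3 of the cholesterol and 2 of the hypoxia genes. Through the EBs alone passed 1 cholesterol gene and the hypoxia gene Tmem45a. The filter sets the direction of these genes.

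Genes of cell division and translation differed little, apart from histones. Their counts stand beside 10.3% of all genes at least 2-fold higher and 21.6% lower, and adjusted counts beside 961 higher and 882 lower of 8786 genes. Of 26 mitosis genes, 26 reached an RPKM of 3, with the mitotic kinase Cdk1 higher (115 and 50.7, 1.18), the phosphatase Cdc25c lower (2.73 and 10.4, -1.89) and a median log2 fold of -0.02. Of 33 replication genes, 1 was higher, 5 were lower and the median was -0.28, with 1 higher and 0 lower when adjusted. Of 44 cytosolic ribosomal protein genes, 2 were higher and 6 lower (median -0.23), with Rpl39 at a log2 fold of 2.44 and Rps2 at -2.75, and of 37 respiratory chain subunits 2 were higher and 5 lower (-0.20), or 0 and 3 when adjusted. The G1/S cyclin Ccne2 had 30.3 in the EBs and 4.37 in the ES cells, and its transcript is poor in GC (2.76, adjusted 0.90). Of 21 replication-dependent histone genes, whose messages lack a polyA tail, 11 reached an RPKM of 3. At least 2-fold lower were 8 and higher were 2, with a median of -2.06 that was -1.82 when adjusted. Of the 11, 5 reached it in both libraries, 1 through the EBs alone and 5 through the ES cells alone. The filter sets the direction of those that passed through 1 library. Hist1h2ab had 16.8 and 70.5 (-2.06), Hist1h2ae 11.1 and 45.2 (-2.02), and Hist2h2aa1 4.59 and 22.8 (-2.29). The linker histone Hist1h1b had 0 reads in the EBs and 100 in the ES cells, at least 35.4-fold lower. Higher were Hist1h2bc (27.0 and 4.66, 2.51) and Hist1h1c (6.09 and 1.61, 1.86), which are known to make polyA forms too. In the shLuc pair 10 of the listed histone genes reached an RPKM of 3. There 4 were higher and 5 lower, with a median of -0.65 that was 0.91 when adjusted. Since the RNA was polyA selected, histone levels also depend on that step, and its part was not tested. Enzymes and readers of heterochromatin gave 0 higher and 3 lower of 21 (median -0.49): Smyd5 itself, the demethylase Kdm4a (5.04 and 13.0, -1.35, adjusted -0.53) and the H3K9 methyltransferase Suv39h1 (4.58 and 9.53, -1.04, adjusted -0.61).

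**Figure D5:**
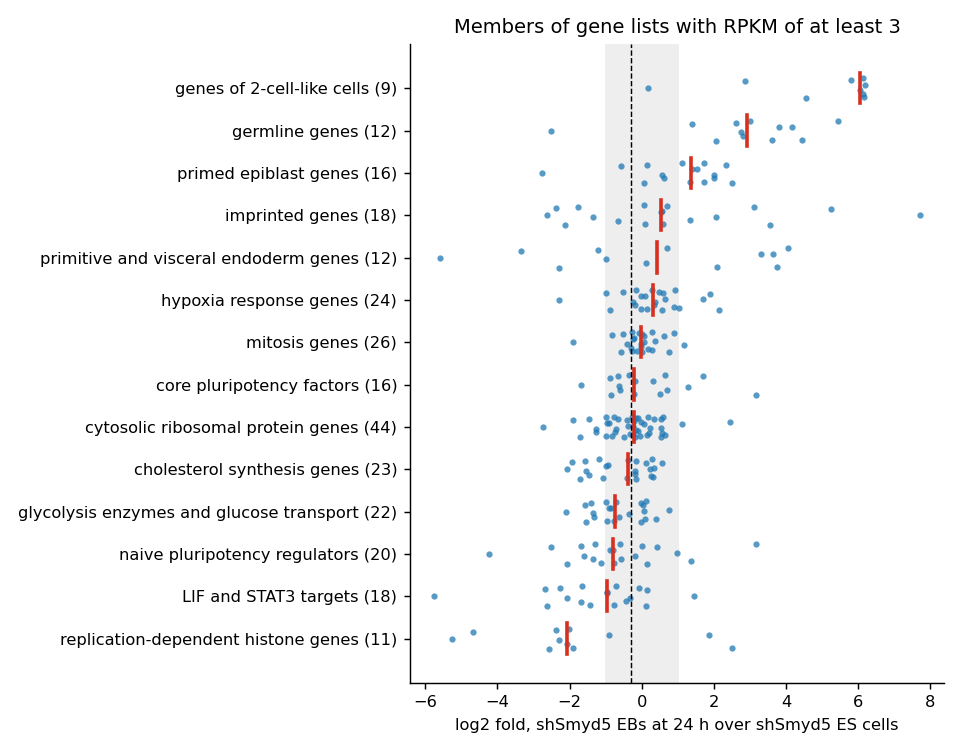
Log2 fold of shSmyd5 EBs at 24 h over shSmyd5 ES cells for members with an RPKM of at least 3 of 14 gene lists, with their number in parentheses. Each blue point is a gene, red bars are list medians, the dashed line is the median of all 9191 genes (-0.30) and grey spans under 2-fold. The 2-cell-like (6.04), germline (2.90) and primed epiblast (1.36) medians lie right of the grey span, and the histone median (-2.06) left of it.

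Beyond the lists, the 12 highest folds at an RPKM of at least 10 in either library held, beside Peg10, Gm4340, Hormad1, Gm5662 and Sycp3, the genes Srgn, Igfbp7, Prg4 and 4921523A10Rik and the miRNA precursors Mir202, Mir684-1 and Mir684-2. Srgn, the core protein of serglycin proteoglycan, had 25.5 in shSmyd5 EBs at 24 h and 0.594 in shSmyd5 ES cells, which gives a log2 fold of 5.21 (4.82 to 6.11), and 1502 at day 6. Igfbp7, a secreted binding protein of insulin-like growth factors, had 36.6 and 1.59, a log2 fold of 4.44 (4.20 to 4.88). The lubricin gene Prg4 had 15.7 and 0.764, a log2 fold of 4.20 (4.11 to 4.63). In the shLuc pair these were higher as well, at log2 folds of 3.22 for Srgn, 3.63 for Igfbp7 and 4.78 for Prg4. The 12 lowest folds belonged to 11 short RNAs (Snord12, Mir5136, Mir1906-1, Mir1906-2, Snord34, Snord96a, Mir678, Snord32a, Mir1306, Snord52 and Snord4a) and to Ly6g6e, each with 0 reads in the EBs. Ly6g6e, a surface protein of the Ly6 family, had 610 reads in the ES cells, at least 216-fold more. The RNA was polyA selected and strand is not known. Reads at the short RNAs, high or low, can thus not be told apart from those of overlapping genes. Transcripts under 200 bases made up 97 of the 9191 genes, with 55 lower and 13 higher, a median of -2.83 and 42 at 0 reads in the EBs, so the lowest longer genes are given too.

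Among transcripts of 200 bases or more, 25 genes had 0 reads in the EBs. The ubiquitin-like gene Ubd had 0 reads in shSmyd5 EBs at 24 h and 431 in shSmyd5 ES cells, at least 152-fold lower, and in the shLuc pair an RPKM of 0 and 15.5. Crb3, a protein of epithelial polarity, had 0 and 481 reads, at least 170-fold lower. The epoxide hydrolase Ephx2 had an RPKM of 0.0939 and 11.6, a log2 fold of -5.91 (-8.16 to -5.96). Crb3 and Ephx2 were lower in the shLuc pair too, at log2 folds of -5.21 and -3.63. The lysosomal enzyme Hexa had 0.397 and 11.0 (-4.48), the small heat shock protein Hspb8 0.514 and 12.2 (-4.32), and the epithelial clathrin adaptor subunit Ap1m2 0.536 and 12.3 (-4.28). Their folds in the shLuc pair were -4.73, -7.43 and -4.61.

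Across genes the shSmyd5 and shLuc pairs, which share no library, resembled each other. In the shLuc pair 9636 genes reached an RPKM of 3, of which 1782 (18.5%) were at least 2-fold higher and 4113 (42.7%) lower in EBs, with a median log2 fold of -0.62. The rank correlation of the folds was 0.756 across 8885 genes measured in both pairs and 0.669 across 8513 genes with adjusted folds, and genes are not independent replicates. Both pairs carry the GC trend, and the correlation is a description. Of 835 genes at least 2-fold higher in the shSmyd5 pair and measured in both, 682 (81.7%) were higher in the shLuc pair, 135 (16.2%) under 2-fold and 18 (2.16%) lower. Of 1910 lower genes, 1626 (85.1%) were lower, 275 (14.4%) under 2-fold and 9 (0.471%) higher. Opposite genes were thus 27 of 8885, among them Tex19.1 and Egln3. Lef1 is not one of them, since its RPKM in the shLuc pair was under 3 in both libraries. The shLuc ES cell library was the shallowest, with 3895537 reads in genes, and its folds carry the widest counting error.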

How the data were processed

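RNA-Seq libraries of polyA RNA were made from double-stranded cDNA, so strand is not known and overlapping or antisense genes cannot be told apart. Per the labels the authors mapped reads to mm9 with Bowtie2 and CASAVA (versions not given in the sources used here). The deposited read count of each of 29257 RefSeq transcripts is a whole number, and the RPKM deposited by the authors is that count over transcript length and library size, which held within 1% for 100% of values over 200 reads.

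For each of 22878 symbols the transcript with the highest mean read count over 10 libraries was used. Folds are log2 of RPKM plus 0.1, for genes with an RPKM of at least 3. With 1 library per group the reported counts and folds rest on no test. GC content was had for 8786 (95.6%) of the 9191 genes, and adjusted folds are residuals of an additive spline (5 knots) on GC content and log length. Coordinates are those of GENCODE on mm9. The comparison, the 37 gene lists (863 entries, 861 in the files) and the markers were chosen with earlier results of these data known. Genes named by rule were Smyd5, Nanog, Lef1 and Dnmt3b, the 12 highest and 12 lowest folds at an RPKM of at least 10, key members and the 5 largest folds of each list, and the 8 largest opposite gaps between pairs. Other named genes, and the 12 lowest among transcripts of 200 bases or more, were picked after their values were seen.

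Alternatives changed the pseudocount (0.01, 1), the RPKM minimum (1, 10, none), the scaling, the transcript, the GC and length trend, and the call (the exact test of edgeR, at a biological coefficient of variation set to 0.2). Methods were tested on simulated data. Versions were R 4.3.3 with edgeR 4.0.16, and Python 3.11.15 with matplotlib 3.10.9, scikit-learn 1.9.0, pandas 2.3.3, numpy 2.4.6 and scipy 1.17.1. Protein, ChIP-Seq and repeat data were not analysed here. A few members of the lists are not reported here by name.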

Additional observations from a re-analysis of the deposited data

Results flagged for a closer look

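Some named genes were at least 2-fold higher in the EBs at 24 h of one pair of libraries (shSmyd5 or shLuc) and at least 2-fold lower in those of the other. With 1 library each the difference was not tested. Lef1 had a log2 fold of 2.35 in the shSmyd5 pair and -1.09 in the shLuc pair, and -1.24 there when adjusted for GC content and length. Tex19.1 had 1.39 and -1.43, Egln3 1.04 and -1.48, and Foxo4, a forkhead factor, 1.07 and -2.30. In the shLuc pair the adjusted folds of these 3 were -0.36, -0.49 and -0.30, under 2-fold. Sox3, a SOX factor of the epiblast and neural plate, had 1.74 and -3.06, and Chac1, a glutathione-degrading enzyme of the stress response, had 1.12 and -1.39, with adjusted shLuc folds of 0.23 and 0.64. So Lef1 alone of these 6 kept opposite signs beyond 2-fold when adjusted. Its RPKM was low in the shLuc pair, at 1.14 in the EBs and 2.55 in the ES cells. The counting interval of its shLuc fold, given above, also took in folds under 2-fold.

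The others were short RNAs with few reads. Mir678 had a log2 fold of -7.36 in the shSmyd5 pair and 1.63 in the shLuc pair, Snord69 -5.83 and 8.01, Snord16a -3.39 and 1.01, and Mir295 -1.80 and 1.95. Snord38a had 2.85 and -5.95, and Mir762 had 1.15 and -5.18. Their shSmyd5 libraries held 0 to 76 reads of each, which cannot be told apart from reads of overlapping genes.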

How the results depend on the processing

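No paired analysis was possible because each group had 1 library, and none could be left out. The number of genes at least 2-fold higher in shSmyd5 EBs at 24 h, 943 as reported, was 603 at an RPKM of at least 10, 1934 with no filter and 381 when genes had also to pass the exact test of edgeR (biological coefficient of variation set to 0.2, adjusted p threshold 0.001). The number at least 2-fold lower, 1981 as reported, was 963, 4237 and 795 under these settings, and 882 without the GC and length trend, a setting that took the trend itself out. Other settings left both within 1.5 times. Of 289 named genes, no fold changed sign past 2-fold under the alternatives: 1589 values stayed on their side of 2-fold, 77 came under it (37 of them without the trend) and 40 passed it. Of the medians of 33 lists, 292 values stayed on their side and 5 passed 2-fold. Among settings chosen after seeing the data, transcripts of 200 bases or more gave 930 higher and 1926 lower genes, and intervals wholly past 2-fold 770 and 1648. With 1 library, the spread between cultures was not measured.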

Other observations

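Further gene groups were counted in the same way, at an RPKM of at least 3 in shSmyd5 EBs at 24 h or shSmyd5 ES cells. Folds adjusted for GC content and length are given where they cross 2-fold. Over all genes at that RPKM, 10.3% were at least 2-fold higher and 21.6% lower. With adjusted folds, 961 were higher and 882 lower of the 8786 genes with a known GC content. A gene that reached the RPKM in 1 library alone has its direction set by the filter. Among enzymes of DNA methylation and demethylation, 15 of 18 listed reached it, and Dnmt3a was at least 2-fold higher while the glycosylase Tdg (3.52 in the EBs and 9.73 in the ES cells, -1.44) and the deaminase Apobec1 (1.02 and 3.36, -1.62) were lower. The maintenance enzyme Dnmt1 (31.1 and 53.9, -0.79, adjusted 0.05) and the dioxygenases Tet1 (-0.11) and Tet2 (0.18) were under 2-fold. Of 20 Polycomb subunits, 0 were higher and 3 lower, the last being Phc2 (-2.26), Pcgf1 (-1.84) and Ezh1 (-1.11, adjusted -0.50). Of the 20, 17 reached an RPKM of 3 in both libraries, 0 through the EBs alone and 3 through the ES cells alone. The filter sets the direction of those 3. Of 12 G1 cyclins and inhibitors, Cdkn1c, Ccne2 (2.76, adjusted 0.90) and Cdkn1b (1.05, adjusted 0.98) were higher and Cdk6 lower (-1.25, adjusted -0.97).

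Stress genes split within their lists. The p53 target Gadd45a, a growth arrest gene, had 202 in the EBs and 55.3 in the ES cells, a log2 fold of 1.86 (1.80 to 1.93), and 0.96 in the shLuc pair. It was the higher one of 21 p53 targets, with Phlda3 (-1.85, adjusted -0.98) and Sesn2 (-1.15, adjusted -0.19) lower, and adjusted folds gave 3 higher and 0 lower. Of 15 heat shock genes, Hspa1b (9.31 and 1.97, 2.18), Dnaja1 (1.22, adjusted 0.87) and Hspa4l (1.10) were higher and Stip1 lower (-1.22, adjusted -0.74). Of the 15, 13 reached an RPKM of 3 in both libraries and 2 through the EBs alone, Hspa1b among them. The filter sets the direction of those 2. Of 27 genes of the integrated stress and unfolded protein responses, 2 were higher and 4 lower (2 and 2 when adjusted), with Dnajb9 at 1.67 (adjusted 0.55) and the serine synthesis enzyme Phgdh at -2.32. Of 14 immediate early genes, 1 was higher (Myc) and 4 were lower, Maff the lowest (-2.41), and when adjusted 4 were higher and 1 was lower, with the median at 0.26 in place of -0.43. Of the 14, 10 reached an RPKM of 3 in both libraries and 4 through the ES cells alone, where the filter sets the direction. Of 6 genes of the metallothionein list, Mt3 was lower, with 1 read in the EBs and 122 in the ES cells, and it passed the filter through the ES cells alone.

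Lineage genes were few at 24 h. Of 25 neural genes, 8 reached an RPKM of 3, with Sox3 and Zic2 higher and Olig2 lower. Olig2 had 0 reads in the EBs and 341 in the ES cells, at least 121-fold lower. Of the 8, 4 reached an RPKM of 3 in both libraries, 1 through the EBs alone and 3 through the ES cells alone. Of 24 genes of the primitive streak and mesoderm, 3 reached it (Eomes and Snai1 higher, Cdx1 lower), each through 1 library alone, so that the filter sets the direction. The adjusted fold of Cdx1 was -0.77. Of 19 trophoblast genes, 7 reached it, with Peg10, Igf2 and Eomes higher and Tfap2c, Tead4 (-1.65, adjusted -0.66) and Krt18 (-1.11, adjusted -0.49) lower. As 3 passed through the EBs alone and 4 through the ES cells alone, the filter set their direction. Of 21 BMP and Id genes, 8 reached it, with Id2 higher (1.56, adjusted 0.92) and 0 lower. Of 23 fibroblast feeder genes, 2 reached it (Twist1, 1.03, and Thy1, 0.27), and of 20 blood and endothelial genes 2 did (Eng, -0.48, and Pecam1, -0.89).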
